A study of Mus musculus with 35 samples.

Results

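The regions described are the surroundings of 8 genes that mark the primitive endoderm: the transcription factor genes Gata4, Gata6, Sox17, Sox7 and Foxa2, the receptor gene Pdgfra, the adaptor gene Dab2 and the laminin gene Lama1. The region of each gene, called its window, held every 2-kb tile of the mouse genome (GRCm38) from 20 kb before the gene to 20 kb after it. The 8 windows held 387 tiles of 1362779 in all: 57 for Gata4, 37 for Gata6, 24 for Sox17, 25 for Sox7, 23 for Foxa2, 45 for Pdgfra, 84 for Lama1 and 92 for Dab2. Of these tiles 67 passed the filter on low values or held the end of a gene and were tested singly (17 for Gata4, 6 for Gata6, 6 for Sox17, 4 for Sox7, 8 for Foxa2, 12 for Pdgfra, 7 for Lama1 and 7 for Dab2). The other 320 entered through the sum of reads over their window.

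Open chromatin was mapped by ATAC-seq, which uses the Tn5 transposase to place adapters in accessible DNA, in 35 libraries from 4 lines of mouse embryonic stem cells (ESC) on 3 days. The line TET_KO carries a triple deletion of Tet1, Tet2 and Tet3, which oxidise 5-methylcytosine, and was derived from TET_WT. The line DNMT_KO is without the DNA methyltransferases Dnmt1, Dnmt3a and Dnmt3b and was derived from DNMT_WT. All lines were grown in 2i with Lif and sampled in that state (D0) or after 1 day (D1) or 2 days (D2) of differentiation to epiblast-like cells (EpiLC). Of the 12 combinations of line and day, 11 had 3 libraries and 1 (TET_KO, D2) had 2. Each knockout was a single line set against a single parental line, so the genotype and any other difference between those lines cannot be told apart. None of these conditions was aimed at endoderm, so the windows show the state of endoderm genes in cells kept on, or leaving, the pluripotent path.

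The primitive endoderm is the extraembryonic lineage that separates from the epiblast in the inner cell mass of the blastocyst and later lines the yolk sac. FGF signalling raises GATA6 in its precursors, where GATA6 and the epiblast factor NANOG oppose each other. GATA4, SOX17 and SOX7 follow as the lineage matures, PDGFRA marks its cells, DAB2 is needed to organise them as an epithelium, and laminin is laid down in the basement membrane beneath them. Forced expression of GATA factors turns embryonic stem cells into endoderm-like cells. In naive stem cells most of these genes are held off or low.

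RefSeq start sites (GRCm38.p6) were at hand for 3 of the 8 genes, Foxa2, Pdgfra and Dab2. For Gata4, Gata6, Sox17, Sox7 and Lama1 the tiles at both ends of the gene stand in place of a start. The 4 stretches below, each from 250 bases before a start to 50 after it, are shown because they place that start in an open or a closed tile. Capitals mark CpG dinucleotides, the sites at which the deleted enzymes add or oxidise methyl groups. The far upstream start of Dab2, chr15:6299539-6299838 on the plus strand, lay in a tile that was closed. The downstream Dab2 start, chr15:6386498-6386797 on the plus strand, lay in the most open tile of the Dab2 window. The Foxa2 stretch, chr2:148045899-148046198 on the minus strand, is the most CpG-rich of 3 Foxa2 starts, and the Pdgfra stretch is chr5:75152001-75152300 on the plus strand.
Dab2, upstream start: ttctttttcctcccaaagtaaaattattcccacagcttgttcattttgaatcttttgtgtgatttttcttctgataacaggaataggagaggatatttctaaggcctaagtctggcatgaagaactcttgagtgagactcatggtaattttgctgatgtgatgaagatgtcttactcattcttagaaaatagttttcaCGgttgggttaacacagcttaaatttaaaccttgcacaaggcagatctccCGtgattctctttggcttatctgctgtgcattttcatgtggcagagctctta
Dab2, downstream start: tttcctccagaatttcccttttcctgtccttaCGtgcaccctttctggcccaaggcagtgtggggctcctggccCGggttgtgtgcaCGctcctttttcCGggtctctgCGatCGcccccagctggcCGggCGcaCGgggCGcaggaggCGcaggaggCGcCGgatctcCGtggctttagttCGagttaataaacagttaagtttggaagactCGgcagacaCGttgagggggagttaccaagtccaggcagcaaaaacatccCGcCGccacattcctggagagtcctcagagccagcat
Foxa2, CpG-rich start: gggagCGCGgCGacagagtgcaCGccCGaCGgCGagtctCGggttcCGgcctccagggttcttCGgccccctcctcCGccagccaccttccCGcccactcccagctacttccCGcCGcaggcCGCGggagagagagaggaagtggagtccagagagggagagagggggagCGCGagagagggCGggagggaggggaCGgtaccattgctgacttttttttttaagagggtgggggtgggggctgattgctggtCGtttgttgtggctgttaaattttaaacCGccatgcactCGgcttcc
Pdgfra: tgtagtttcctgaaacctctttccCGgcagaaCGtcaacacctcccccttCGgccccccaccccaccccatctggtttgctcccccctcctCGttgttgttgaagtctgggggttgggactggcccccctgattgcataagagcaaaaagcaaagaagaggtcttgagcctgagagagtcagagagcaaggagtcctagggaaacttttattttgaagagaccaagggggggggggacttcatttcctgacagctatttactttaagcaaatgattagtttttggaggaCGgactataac
The downstream Dab2 stretch held 19 CpG and the upstream one 2, beside a median of 7 over 32817 mouse promoters of the same 300 bases. The Foxa2 stretch held 23 CpG and the Pdgfra stretch 5. GATAA, the core bound by GATA factors, was searched on both strands and was present in 25.4% of all promoters. The upstream Dab2 stretch held 2 matches and the other 3 printed stretches held 0. A Foxa2 start that is not printed, chr2:148045415-148045714, held 1 match and lay in the same open tile as the printed Foxa2 start. ACAAT, bound by SOX factors, was present in 31.0% of all promoters and in none of the 4 printed stretches. A match is a run of letters and not a measured binding site, and the absence of one says only that the letters are not in this window.

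Libraries held 3204696 to 23682696 reads on autosomes and X, recovered from the deposited values. D1 libraries differed from the rest in processing: 5.62 to 46.8% of their reads were mitochondrial, against 0% at D0 and D2, and the sum of their reads was about 2.04 times the total used for scaling. Day and processing cannot be told apart between D1 and D0, so D1 levels are given without a test against D0, while knockout and parent were processed alike within a day. The libraries are not stated to be separate cultures, so p-values measure the spread between these libraries, which may be technical. In bulk libraries, fewer cells with an open site and a less open site in every cell cannot be told apart. The 5 feeder fibroblast genes (Col1a1, Col1a2, Thy1, Twist2 and Postn) had 0 of 5 windows called by limma in all 12 comparisons. Over all windows 0 to 7.92% were called. At an unadjusted p under 0.05 there were 0 or 1 of 5, beside 3.37 to 20.0% of all windows. Of 7 naive pluripotency genes, the windows of 3 fell from D0 to D2 in TET_WT, 4 in TET_KO, 6 in DNMT_WT and 6 in DNMT_KO, and 0 rose, where 1.12%, 0.618%, 2.74% and 2.1% of all windows were called. With each library left out in turn, Tfcp2l1 kept its call in every fit in all 4 lines. In TET_WT Tbx3 kept it in 1 of 6 and Zfp42 in 0 of 6, and in TET_KO Zfp42 in 2 of 5, Tbx3 in 1 of 5 and Esrrb in 0 of 5. In the DNMT lines the calls were kept in 4 or more of 6, apart from Tbx3 (3 of 6) and Prdm14 (2 of 6) in DNMT_KO. Of 5 formative genes, limma called 1, 0, 2 and 1 higher at D2 in the same order of lines. At an unadjusted p under 0.05 there were 4, 4, 2 and 2, and the median change was 0.44, 0.47, 0.22 and 0.26. The Pou3f1 call among them was kept in 2 of 6 fits with a library left out in DNMT_WT and in DNMT_KO. Among 5 genes of definitive endoderm and primitive streak, Gsc fell in DNMT_WT (-0.55, adjusted p = 0.00755) and DNMT_KO (-0.46, adjusted p = 0.0316). None was called higher in any line. An unadjusted p under 0.05, in either direction, was found for 1, 0, 3 and 1 of them in the same order of lines. The shares of all windows are those given for the formative genes. The Gsc call in DNMT_KO was kept in 2 of 6 fits with a library left out and in 2 of 7 other settings.

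Window level means the log2 of RPM per kb, where RPM is the reads of the window scaled to the total of the library, quantile normalised over the windows of 49554 genes. By the mean over all libraries the order was Sox17 (-0.52), Foxa2 (-0.74), Gata4 (-0.86), Pdgfra (-1.09), Sox7 (-1.14), Gata6 (-1.26), Lama1 (-1.27) and Dab2 (-1.76). The median protein-coding window stood at -0.97, so by this mean Sox17, Foxa2 and Gata4 were above it and the other 5 genes below. The mean pools lines whose chromosome backgrounds differ, a background being the mean over a chromosome's tiles outside the tested set relative to all chromosomes. That of chromosome 1, where Sox17 lies, had group means of 0.40 to 0.53 in the DNMT lines and -0.04 to 0.06 in the TET lines. In TET_WT the Gata4 window (-0.47, -0.58 and -0.45 at D0, D1 and D2) stood above that of Sox17 (-0.83, -0.65 and -0.72), and in the DNMT lines Gata4 was below the median in 5 of 6 groups (-1.22 to -0.86). Sox17 stood at percentile 76.2 of 21631 protein-coding windows and Dab2 at percentile 15.0. The ranges of every pair of neighbours in this order overlapped when pooled over all libraries. Such an overlap does not show that neighbours were alike within a library, and in every single library Lama1 stood above Dab2. The largest spread of group means over D0 and D2 was that of Foxa2 (0.95 log2 units), so no member reached the spread of 1 log2 unit set for a search for genes of like pattern.

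**Figure D1:**
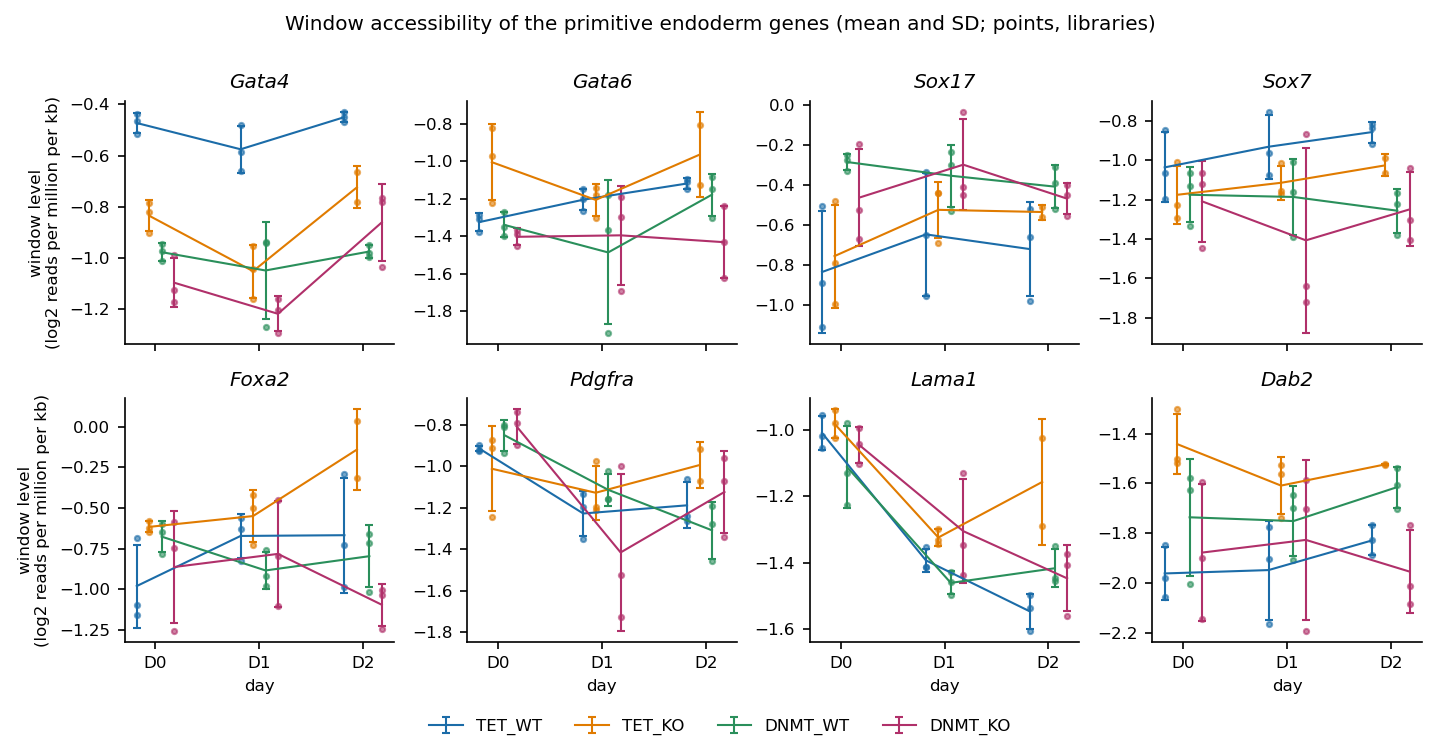
Window level (log2 RPM per kb, each panel on its own scale) of each gene by day and line; points are libraries and bars are mean and SD (n = 3, 2 for TET_KO at D2). Lama1 has a lower mean at D2 than at D0 in every line, without overlap of libraries in TET_WT, DNMT_WT and DNMT_KO and with overlap in TET_KO. Gata4 is higher in TET_WT than in the other 3 lines on every day.

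From D0 to D2, the Lama1 window closed in TET_WT, DNMT_WT and DNMT_KO, and no member window was called higher in any line. Calls were made at an adjusted p under 0.05 in limma with Benjamini-Hochberg adjustment over all windows. In TET_WT 1 of 8 member windows was called (1.12% of all windows were), in DNMT_WT 1 of 8 (2.74% of all), and in DNMT_KO 1 of 8 (2.1% of all), each time Lama1, lower at D2. In TET_KO limma called 0 of 8 (0.618% of all windows), and 2 of 8 had an unadjusted p under 0.05 (9.63% of all windows). The median change of the 8 windows was 0.12 in TET_WT, 0.08 in TET_KO, -0.10 in DNMT_WT and -0.06 in DNMT_KO, beside medians between 0 and 0.01 over all windows. Of the 8 windows, 6 were nominally higher at D2 in TET_WT, 6 in TET_KO, 3 in DNMT_WT and 1 in DNMT_KO.

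**Figure D2:**
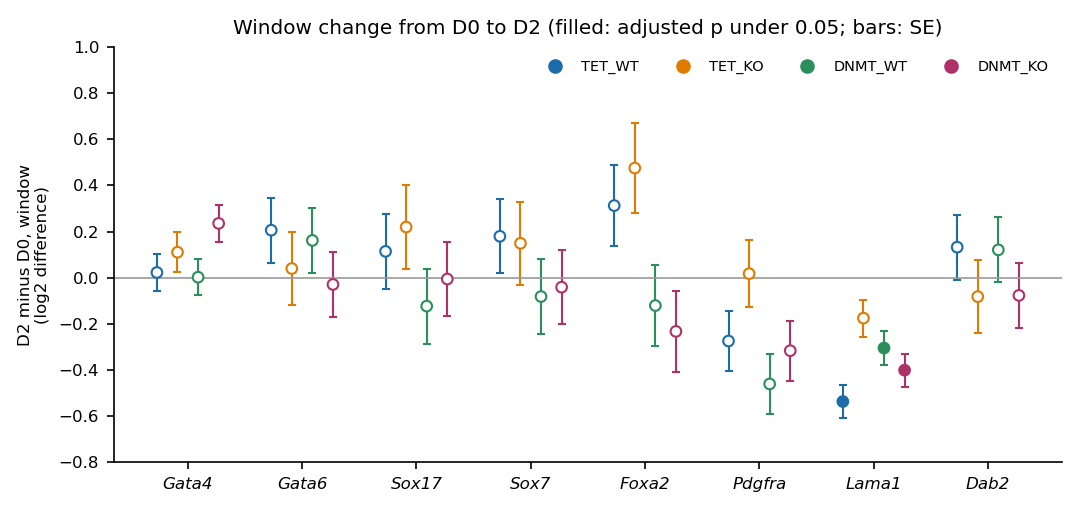
Change of the window level from D0 to D2 (log2 difference, bars are SE of the limma fit) for each gene and line; filled points passed an adjusted p of 0.05. The filled points are those of Lama1 in TET_WT (-0.54), DNMT_WT (-0.30) and DNMT_KO (-0.40).

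Single tiles gave the same picture of few changes. Of 67 tested member tiles, limma called 2 in DNMT_WT (1.47% of all tested tiles were called) and 1 in DNMT_KO (1.5% of all), each lower at D2. It called 0 of 67 in TET_WT (0.472% of all) and 0 of 67 in TET_KO (0.673% of all). At an unadjusted p under 0.05 there were 5 and 8, beside 6.57% and 8.81% of all tested tiles. Limma voom on the recovered reads called 4 in TET_WT, 1 in TET_KO, 0 in DNMT_WT and 1 in DNMT_KO. The shares of all tiles given above are those of limma without voom, and no such share was computed for voom. The 3 limma calls lay inside Gata4 and Pdgfra and are described with those genes. Of the 4 voom calls in TET_WT, 2 were Lama1 tiles at or just before its lower-coordinate end (67694001 to 67696000, -1.54, adjusted p = 0.0162, and 67696001 to 67698000). Of the other 2, both of Pdgfra, 1 lay inside the gene and 1 beyond its end (75210001 to 75212000, -1.32, adjusted p = 0.037).

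Gata6, the earliest factor of the lineage (gene 14465, chromosome 18, 11052510 to 11085636), was open at its lower-coordinate end. The tile there, 11052001 to 11054000, had a mean level of 0.72 (log2 RPKM, quantile normalised; percentile 98.8 of tiles on autosomes and X) and also holds the end of Gata6os, a lncRNA gene. The tile at the other end, 11084001 to 11086000, had a mean of -1.58 (percentile 41.2) and no call. In TET_WT the open tile, 11052001 to 11054000, held 40, 25 and 30 reads at D0 and 27, 43 and 39 at D2. Its level was 0.06, 0.62 and 0.60 at D0 and 0.75, 1.36 and 0.96 at D2, groups that did not overlap, yet the difference of 0.60 ± 0.34 (SE) did not pass (adjusted p = 0.871). In DNMT_KO it stood at 0.07, 0.63 and 0.45 at D0 and 1.04, 0.79 and -0.41 at D2. The window level ranged from -1.92 to -0.80 over the 35 libraries, and no comparison of the Gata6 window passed.

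Gata4, a factor of the maturing endoderm (gene 14463, chromosome 14, 63198914 to 63271712), had tile means of -0.59 (percentile 89.3) and -0.82 (percentile 83.4) at its lower- and higher-coordinate ends. The most open tile of its window, 63178001 to 63180000 (mean 1.14), lies inside Fdft1, a cholesterol synthesis gene, and Neil2 also lies within the window. The Gata4 window was higher in TET_WT than in TET_KO. At D0 its level was -0.52, -0.44 and -0.47 in TET_WT and -0.82, -0.78 and -0.90 in TET_KO. At D1 it was -0.66, -0.48 and -0.59 in TET_WT and -1.04, -0.95 and -1.16 in TET_KO. At D2 it was -0.43, -0.47 and -0.45 in TET_WT and -0.78 and -0.67 in TET_KO. The lines did not overlap on any day. TET_KO minus TET_WT was -0.36 ± 0.08 at D0 (adjusted p = 0.00384), -0.48 ± 0.08 at D1 (adjusted p = 0.000207) and -0.27 ± 0.09 at D2 (adjusted p = 0.071, not called). The D2 difference passed with values as deposited (-0.41, adjusted p = 0.0483) and with a flank of 50 kb (-0.25, adjusted p = 0.029).

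The Gata4 difference moved with its whole chromosome. The background of chromosome 14 lay between 0.24 and 0.31 in every TET_WT library. In TET_KO it lay between -0.11 and -0.01. TET_KO minus TET_WT in this background was -0.32 at D0, -0.35 at D1 and -0.32 at D2. Centring of windows used another measure, the median of all gene windows on each chromosome. With each chromosome so centred, the Gata4 window differed by 0.0097 at D0 (adjusted p = 0.98) and by -0.098 at D1 (adjusted p = 0.789). Neither call was kept. Sox7, which lies on the same chromosome, differed by -0.14 ± 0.16 at D0, -0.18 ± 0.16 at D1 and -0.17 ± 0.18 at D2, none of them called. The libraries of the DNMT lines had chromosome 14 backgrounds from -0.26 to 0.05. What sets the chromosome apart in TET_WT was not tested.

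**Figure D3:**
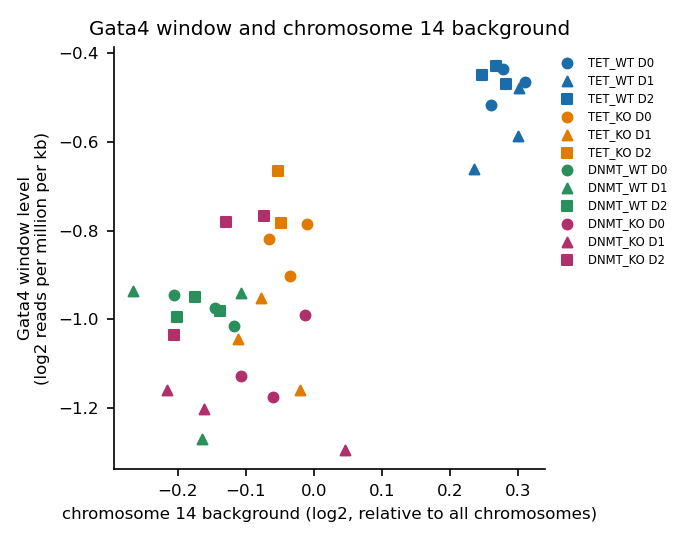
Gata4 window level (log2 RPM per kb) against the background of chromosome 14 (log2, relative to all chromosomes), a point per library, coloured by line and shaped by day. The 9 TET_WT libraries lie apart at the upper right, with backgrounds from 0.24 to 0.31.

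From D0 to D2 the Gata4 window changed by 0.02 ± 0.08 in TET_WT, 0.11 ± 0.09 in TET_KO, 0.00 ± 0.08 in DNMT_WT and 0.24 ± 0.08 in DNMT_KO, with no call (lowest adjusted p = 0.132, in DNMT_KO). Without DNMT_KO D2 replicate 2 the DNMT_KO change was 0.32 and passed (adjusted p = 0.0482). A tile inside the gene, 63254001 to 63256000, fell in DNMT_WT. It held 15, 10 and 16 reads at D0 and 4, 3 and 3 at D2, and its level went from 0.60, 0.30 and 0.30 to -1.15, -1.35 and -1.44. The groups did not overlap, and the difference was -1.71 ± 0.43 (adjusted p = 0.0293). The call was lost whichever of the 6 libraries was left out (adjusted p up to 0.116), with only the compared groups in the fit (adjusted p = 0.201), with no filter (adjusted p = 0.129) and with limma voom (adjusted p = 0.232). In TET_WT the same tile held 66, 36 and 37 reads at D0 and 31, 28 and 42 at D2, a change of -0.04 ± 0.43. In TET_KO and DNMT_KO the tile changed by -0.19 ± 0.48 and -0.37 ± 0.43, not called.

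Sox17, a factor shared by primitive and definitive endoderm (gene 20671, chromosome 1, 4490928 to 4497426), held the most open tile of all 8 windows. This tile, 4492001 to 4494000, lies inside the gene and had a mean level of 2.29, at percentile 99.96 of all tiles. At D0 it held 114, 49 and 120 reads in TET_WT, 38, 50 and 46 in TET_KO, 70, 55 and 60 in DNMT_WT, and 46, 60 and 36 in DNMT_KO. At D2 it held 39, 86 and 92 reads in TET_WT, 73 and 100 in TET_KO, 54, 44 and 26 in DNMT_WT, and 58, 24 and 38 in DNMT_KO. The tile was thus open in naive cells and in epiblast-like cells of every line. Its level changed from D0 to D2 by -0.07 ± 0.28 in TET_WT, -0.20 ± 0.28 in DNMT_WT and -0.09 ± 0.28 in DNMT_KO, groups that overlapped. In TET_KO the level was 1.43, 2.02 and 2.06 at D0 and 2.63 and 2.44 at D2, a difference of 0.70 ± 0.31 that did not pass (adjusted p = 0.486). Both end tiles of the gene were open as well (means 0.52 and 0.85). No comparison of the Sox17 window passed.

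Sox7, the close relative of Sox17 (gene 20680, chromosome 14, 63943706 to 63950732), was open at its lower-coordinate end. The tile 63942001 to 63944000 had a mean of 0.35 and the tile at the other end a mean of -1.25. In TET_WT the open tile stood at 0.40, 0.31 and 0.46 at D0 and at 1.37, 1.12 and 0.60 at D2. These groups did not overlap, and the difference of 0.64 ± 0.35 did not pass (adjusted p = 0.86). In DNMT_WT it stood at -0.72, -0.44 and 0.21 at D0 and at -0.60, 0.07 and 0.31 at D2, with overlap. No comparison of the Sox7 window passed over all libraries. Without DNMT_KO D1 replicate 1, the shift of DNMT_KO from DNMT_WT at D1 was -0.49 and passed (adjusted p = 0.0499).

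Foxa2, a pioneer factor of visceral and definitive endoderm (gene 15376, chromosome 2, 148042877 to 148046969), had 2 open tiles at its start sites. The tile 148044001 to 148046000, which holds the start site of the CpG-rich stretch printed above, had a mean of 0.67, and the next tile, 148046001 to 148048000, into which the stretch runs, a mean of 0.66. The tile at the lower-coordinate end, 148042001 to 148044000, had a mean of -0.66, with no call. In TET_KO the tile 148044001 to 148046000 held 25, 19 and 10 reads at D0 and 38 and 60 at D2. Its level was 0.76, 0.64 and 0.13 at D0 and 1.77 and 1.68 at D2, without overlap, and the difference of 1.22 ± 0.48 did not pass (adjusted p = 0.379). In TET_WT it was 0.12, 0.07 and 0.97 at D0 and 0.24, 1.25 and 1.17 at D2, with overlap. The Foxa2 window changed from D0 to D2 by 0.31 ± 0.18 in TET_WT, 0.48 ± 0.20 in TET_KO, -0.12 ± 0.18 in DNMT_WT and -0.23 ± 0.18 in DNMT_KO. None passed (adjusted p = 0.693, 0.39, 0.839 and 0.609). TET_KO minus TET_WT at D2 was 0.53 ± 0.20 (adjusted p = 0.138) and passed without TET_WT D2 replicate 2 (0.72, adjusted p = 0.0393).

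Pdgfra, the receptor for platelet-derived growth factor that marks primitive endoderm cells (gene 18595, chromosome 5, 75151322 to 75198206), held the largest called change of a single tile. A tile inside the gene, 75188001 to 75190000 and 37.7 kb from its lower-coordinate end, was open at D0 in every line and lower in every line at D2. In TET_WT it held 57, 29 and 45 reads at D0, 6, 4 and 4 at D1, and 8, 11 and 19 at D2. In TET_KO it held 28, 16 and 12 at D0, 9, 7 and 5 at D1, and 5 and 9 at D2. In DNMT_WT it held 16, 13 and 26 reads at D0, 10, 12 and 4 at D1, and 5, 3 and 7 at D2. In DNMT_KO the reads were 20, 16 and 23 at D0, 5, 2 and 1 at D1, and 11, 4 and 2 at D2. Levels at D0 and D2 did not overlap in any of the 4 lines.

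In DNMT_KO the level of this Pdgfra tile went from 1.04, 0.81 and 1.21 to -0.11, -1.26 and -2.19, a change of -2.21 ± 0.43 (adjusted p = 0.00281). That call was kept whichever of the 6 libraries was left out, with changes from -2.75 to -1.71, and lost with only the compared groups in the fit (adjusted p = 0.248). In DNMT_WT the level went from 0.69, 0.72 and 1.01 to -0.87, -1.35 and -0.20, a change of -1.61 ± 0.43 (adjusted p = 0.0429). The DNMT_WT call was kept in 1 of 6 fits with a library left out (adjusted p up to 0.195) and in 2 of 7 other settings. In TET_WT the change was -1.45 ± 0.43 (adjusted p = 0.158) and in TET_KO -1.76 ± 0.48 (adjusted p = 0.0804), neither of them called, whereas limma voom called both (-1.33, adjusted p = 0.00178, and -1.73, adjusted p = 0.0258). Under voom the DNMT_WT change was -1.54 and did not pass (adjusted p = 0.0694). Knockout and parent were not shown to differ in this fall, since limma called 0 of 67 member tiles in the difference of the changes in either family.

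**Figure D4:**
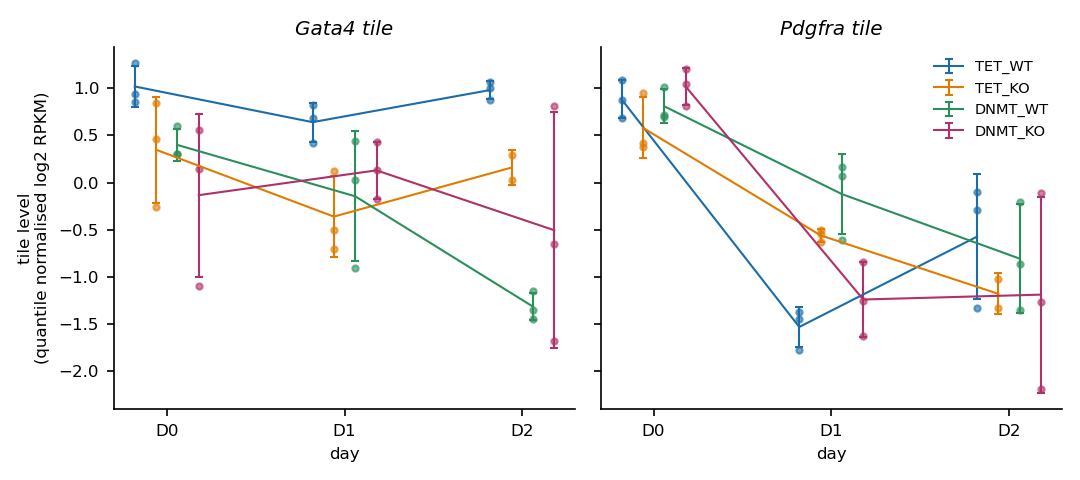
Level (quantile normalised log2 RPKM) of the Gata4 tile from 63254001 and the Pdgfra tile from 75188001 by day and line; points are libraries and bars are mean and SD. The Pdgfra tile is lower at D2 than at D0 in all 4 lines, and the Gata4 tile was called in DNMT_WT alone.

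The start of Pdgfra lay elsewhere, and its tile was not called. The tile with the RefSeq start, 75152001 to 75154000, had D2 minus D0 differences of -0.56 ± 0.42 in TET_WT, 0.17 ± 0.46 in TET_KO, -0.64 ± 0.42 in DNMT_WT and -0.24 ± 0.42 in DNMT_KO, with overlap in each. At the gene's ends, the tile 75150001 to 75152000 had a mean of -0.32 and the tile 75198001 to 75200000 a mean of -1.69. In TET_KO the former stood at -1.29, -0.92 and -0.58 at D0 and 0.40 and 0.45 at D2, without overlap, a difference of 1.35 ± 0.46 that did not pass (adjusted p = 0.23). In DNMT_KO the latter stood at -1.32, -0.81 and -1.10 at D0 and -2.08, -2.21 and -2.96 at D2, without overlap, a difference of -1.34 ± 0.53 that did not pass (adjusted p = 0.256). The most open tile, 75154001 to 75156000 (mean 0.89), stood in DNMT_WT at 0.49, -0.23 and 0.56 at D0 and 1.50, 1.19 and 1.39 at D2. That difference of 1.09 ± 0.32 did not pass (adjusted p = 0.0733) and passed with chromosomes centred (1.18, adjusted p = 0.0386). The Pdgfra window as a whole changed by -0.27 ± 0.13 in TET_WT (adjusted p = 0.545), 0.02 ± 0.15 in TET_KO (adjusted p = 1), -0.46 ± 0.13 in DNMT_WT (adjusted p = 0.0547) and -0.32 ± 0.13 in DNMT_KO (adjusted p = 0.253). In DNMT_WT the levels were -0.80, -0.81 and -0.94 at D0 and -1.46, -1.28 and -1.19 at D2, without overlap. The DNMT_WT change passed with chromosomes centred (-0.38, adjusted p = 0.049) and with the replicate number as a block (-0.46, adjusted p = 0.0422).

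Dab2, an endocytic adaptor of endoderm epithelium (gene 13132, chromosome 15, 6299788 to 6440715), had the lowest window of the 8 genes. Its upstream and downstream starts, printed above, lie 87.0 kb apart. The tile of the downstream start, 6386001 to 6388000, had a mean of 0.43 (percentile 98.2), and that of the upstream start, 6298001 to 6300000, a mean of -1.98 (percentile 22.4). The tile at the far end of the gene, 6440001 to 6442000, had a mean of -1.41. In TET_WT at D0 the downstream tile held 39, 16 and 29 reads and the upstream tile 6, 2 and 2. In DNMT_KO at D0 the numbers were 7, 11 and 12 against 4, 2 and 1. Of these 2 Dab2 starts, the CpG-rich one was thus the open one, and the one with GATAA matches was in closed chromatin. None of these 3 tiles passed in any comparison.

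The Dab2 window was higher in TET_KO than in TET_WT at D0. The levels were -1.98, -1.85 and -2.06 in TET_WT and -1.52, -1.50 and -1.30 in TET_KO, without overlap, and the difference was 0.52 ± 0.14 (adjusted p = 0.0219). At D1 it was 0.34 ± 0.14 (adjusted p = 0.172) and at D2 0.30 ± 0.16 (adjusted p = 0.344), with no overlap between lines but no call. The D0 call was lost without TET_KO D0 replicate 3 (0.45, adjusted p = 0.115), TET_WT D0 replicate 1 (0.51, adjusted p = 0.0733) or TET_WT D0 replicate 3 (0.47, adjusted p = 0.084). It was also lost with chromosomes centred (0.43, adjusted p = 0.104), with a flank of 10 kb (0.47, adjusted p = 0.0582) and with the mean of tile values (0.33, adjusted p = 0.138). The background of chromosome 15 differed by 0.12 in the same direction at D0. From D0 to D2 no Dab2 window change passed in any line.

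Lama1, the laminin alpha-1 chain of embryonic basement membranes (gene 16772, chromosome 17, 67697127 to 67822645), had the clearest change. In TET_WT its window level was -1.06, -1.02 and -0.95 at D0, -1.41, -1.41 and -1.35 at D1, and -1.50, -1.60 and -1.54 at D2. In DNMT_WT it was -1.13, -0.98 and -1.23 at D0, -1.43, -1.50 and -1.46 at D1, and -1.44, -1.45 and -1.35 at D2. In DNMT_KO it was -0.99, -1.04 and -1.10 at D0, -1.44, -1.35 and -1.13 at D1, and -1.41, -1.37 and -1.56 at D2. In each of these 3 lines every D2 library lay below every D0 library. In TET_KO the levels were -0.94, -0.98 and -1.03 at D0, -1.33, -1.34 and -1.30 at D1, and -1.02 and -1.29 at D2, so that a D2 library stood within the D0 range.

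The Lama1 fall from D0 to D2 was -0.54 ± 0.07 in TET_WT (1.45-fold, adjusted p = 0.000178), -0.30 ± 0.07 in DNMT_WT (1.23-fold, adjusted p = 0.0195) and -0.40 ± 0.07 in DNMT_KO (1.32-fold, adjusted p = 0.00222). In TET_KO it was -0.17 ± 0.08 (adjusted p = 0.474). The TET_WT and DNMT_KO calls were kept whichever of 6 libraries was left out. With the mean of tile values they were not kept (-0.45, adjusted p = 0.0688, and -0.40, adjusted p = 0.0733), nor was that of DNMT_KO with only the compared groups in the fit (adjusted p = 0.0707). The DNMT_WT call was lost without D0 replicate 2 (-0.24, adjusted p = 0.126), D2 replicate 1 (-0.29, adjusted p = 0.0805) or D2 replicate 2 (-0.29, adjusted p = 0.0722), and in 4 of 7 other settings (adjusted p up to 0.164). The background of chromosome 17 changed by between -0.03 and 0.01 from D0 to D2 over the 4 lines.

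The Lama1 fall was spread over the window. Of 84 tiles, 69 had a lower mean at D2 in TET_WT, 56 in TET_KO, 56 in DNMT_WT and 54 in DNMT_KO. In the Pdgfra window, which was not called, 32 of 45 tiles were lower in TET_WT and 33 in DNMT_WT. There 22 were lower in TET_KO and 29 in DNMT_KO, so outside TET_KO such a spread is not particular to Lama1. Summed over the Lama1 window, RPM went from 85.2 to 60.0 in TET_WT and from 82.9 to 71.6 in TET_KO. In DNMT_WT it went from 77.7 to 61.9 and in DNMT_KO from 83.7 to 63.6. In TET_WT the 77 tiles that were not tested singly made up -20.4 of the change of -25.2 RPM. The most open tile, 67696001 to 67698000 across the lower-coordinate end of the gene (mean 1.22), held 108, 38 and 100 reads at D0 and 22, 30 and 45 at D2 in TET_WT. Its level changed by -0.94 ± 0.28 there (adjusted p = 0.166 in limma, 0.00685 in limma voom), 0.10 ± 0.31 in TET_KO, -0.67 ± 0.28 in DNMT_WT and -0.09 ± 0.28 in DNMT_KO. The tile at the other end of the gene, 67822001 to 67824000, had a mean of -1.52 (percentile 45.3) and no call.

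A second tile of Lama1, 67710001 to 67712000 and 13.9 kb inside the gene, was below the filter and carries no test. It was chosen, after its values were seen, as the window's tile with the largest fall in RPM summed over the 4 lines. In TET_WT it held 63, 24 and 42 reads at D0, 11, 7 and 9 at D1, and 3, 8 and 6 at D2. In TET_KO it held 27, 16 and 22 at D0 and 5 and 13 at D2. In DNMT_WT it held 20, 11 and 13 at D0 and 1, 3 and 4 at D2, and in DNMT_KO 18, 16 and 19 at D0 and 7, 4 and 5 at D2. The mean went from 2.82 to 0.58 RPM in TET_WT, from 2.87 to 0.90 in TET_KO, from 2.38 to 0.53 in DNMT_WT and from 3.22 to 0.85 in DNMT_KO. The tile stood lower at D2 in all 4 lines, but it was picked for its fall over those lines. The open tile at the gene's end was not lower at D2 in TET_KO (mean level 1.43 at D0 and 1.52 at D2). In DNMT_KO that end tile had a mean level of 1.21 at D0 and 1.12 at D2. Its mean RPM, which is not quantile normalised, was 4.33 at D0 and 3.22 at D2. The lines were not shown to differ there.

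**Figure D5:**
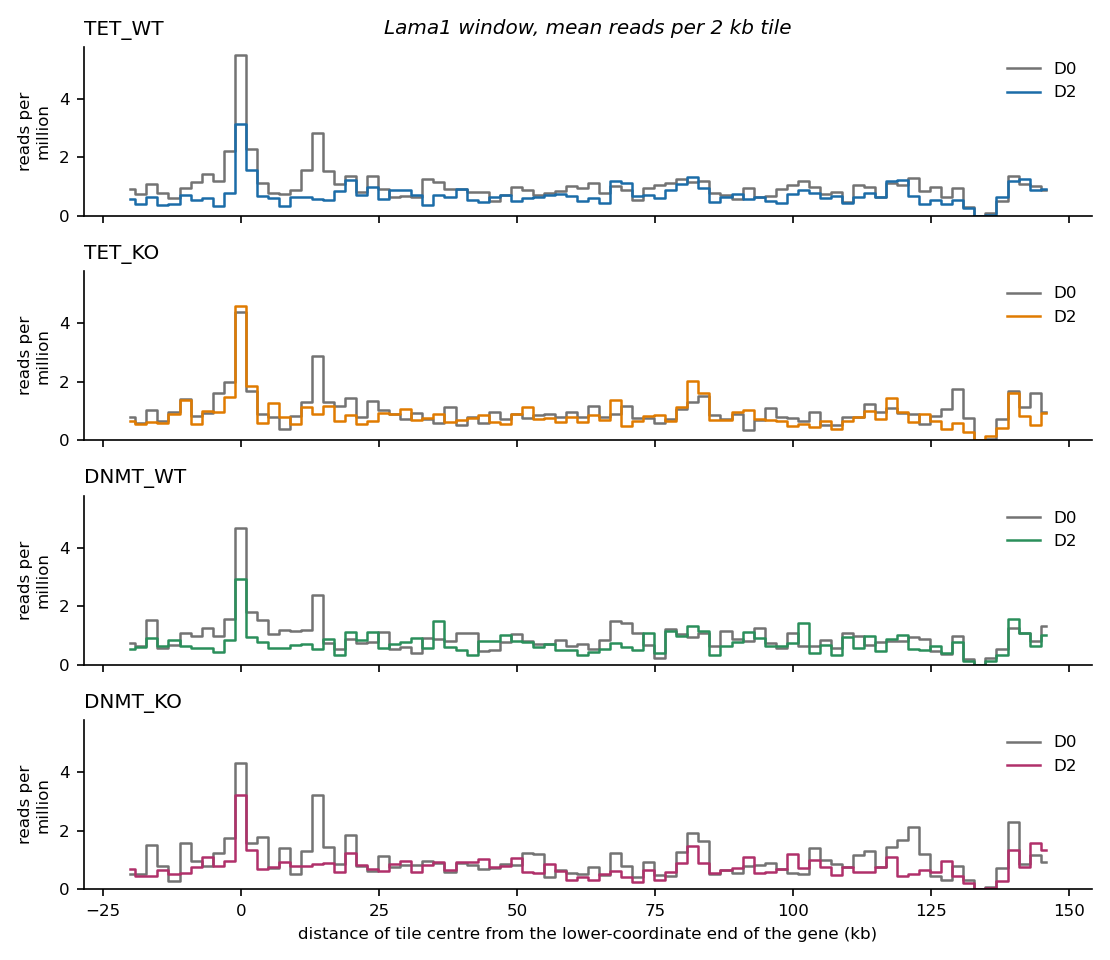
Mean RPM in each 2-kb tile of the Lama1 window against distance from the lower-coordinate end of the gene (kb), D0 in grey and D2 in colour, a panel per line. The peak at 0 kb has a lower mean at D2 in TET_WT (5.50 to 3.13), DNMT_WT (4.67 to 2.94) and DNMT_KO (4.33 to 3.22) and not in TET_KO (4.39 to 4.59). Knockout and parent were not shown to differ in the change of this peak. The peak near 13.9 kb, picked for its fall summed over the 4 lines, is lower in every line.

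Lama1 also differed between TET_KO and TET_WT at D2. The 2 TET_KO libraries stood at -1.02 and -1.29 and the TET_WT libraries at -1.50, -1.60 and -1.54, without overlap, a difference of 0.39 ± 0.08 (adjusted p = 0.00346). At D0 and D1 the difference was 0.03 ± 0.07 and 0.07 ± 0.07, not called. The D2 call rested on a single library: without TET_KO D2 replicate 1 the difference was 0.26 (adjusted p = 0.271). It was also lost with values as deposited (0.25, adjusted p = 0.231), chromosomes centred (0.33, adjusted p = 0.187), only the compared groups (0.39, adjusted p = 0.0809) and the mean of tile values (0.24, adjusted p = 0.367). The background of chromosome 17 was 0.09 higher in TET_KO at D2. The direct test of whether TET_KO and TET_WT differed in the fall from D0 to D2 gave 0.36 ± 0.11. It did not pass in limma (unadjusted p = 0.00249, adjusted p = 1), in a comparison where 0.00202% of all windows were called. The fall is thus not shown to be smaller in TET_KO, nor shown to be equal.

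Knockout and parent were compared on each day to see where losing the TET or DNMT enzymes altered these windows. TET_KO against TET_WT gave 2 called windows of 8 at D0, Gata4 lower and Dab2 higher (7.62% of all windows were called). It gave 1 of 8 at D1, Gata4 lower (7.92% of all), and 1 of 8 at D2, Lama1 higher (5.15% of all). With chromosomes centred none of these 3 days kept a called member window. At D0, D1 and D2 limma called 0 of the 67 tested tiles, beside 0.0746%, 0.179% and 0.0585% of all tiles. With an unadjusted p under 0.05 there were 3, 6 and 7, beside 8.5%, 8.6% and 6.8% of all tiles. Limma voom called 0 on each day.

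In DNMT_KO against DNMT_WT limma called 0 of 8 windows at D0 (0% of all windows), 0 at D1 (0.646% of all) and 0 at D2 (0% of all). At an unadjusted p under 0.05 there were 0, 3 and 1. Limma called 0 of 67 tiles at D0 (0% of all tiles), 0 at D1 (0.152% of all) and 0 at D2 (0.00805% of all). With an unadjusted p under 0.05 there were 4, 6 and 9 tiles, beside 5.48%, 10.8% and 7.91% of all tiles. Limma voom called 0 on each day. The largest window shift at D2 was that of Dab2, at -1.54, -1.61 and -1.70 in DNMT_WT and -2.01, -1.76 and -2.08 in DNMT_KO. These libraries did not overlap, and the difference of -0.34 ± 0.14 did not pass (adjusted p = 0.689). At D1 the windows of Pdgfra (-0.51, adjusted p = 0.0175) and Sox7 passed only without DNMT_KO D1 replicate 1.

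The change from D0 to D2 was not shown to differ between knockout and parent for any member. In the TET family limma called 0 of 8 windows (0.00202% of all) and 0 of 67 tiles (0% of all). At an unadjusted p under 0.05 it gave 1 window (3.37% of all) and 5 tiles (3.26% of all). In the DNMT family it called 0 of 8 windows (0% of all) and 0 of 67 tiles (0.000537% of all). At that unadjusted p it again gave 1 window (4.47% of all) and 5 tiles (6.07% of all). Limma voom called 0 tiles in both. These are few calls over the whole genome too, so a member without a call is not shown to be unaffected.

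A further 22 genes of the endoderm were read the same way: 5 transcription factors, 5 receptors, 6 matrix proteins and 6 secreted or surface proteins. From D0 to D2, limma called 1 higher and 2 lower in TET_WT and 0 in TET_KO. It called 3 lower in DNMT_WT, and 1 higher and 3 lower in DNMT_KO. In TET_KO 6 of 22 had an unadjusted p under 0.05, beside 9.63% of all windows. There Lrp2, Lamc1 and Nid1 had adjusted p = 0.119, 0.174 and 0.121. Over all windows 1.12%, 0.618%, 2.74% and 2.1% were called in TET_WT, TET_KO, DNMT_WT and DNMT_KO. The median change of the 22 was 0.05, 0.12, -0.04 and 0.02 in that order. All falls were among the matrix genes. Lamc1, the laminin gamma-1 chain that pairs with the Lama1 product, fell by 0.37 in TET_WT (adjusted p = 0.00137), by 0.25 in DNMT_WT (adjusted p = 0.024) and by 0.37 in DNMT_KO (adjusted p = 0.000934). Nid1, nidogen, which links laminin to collagen IV, fell by 0.60 in TET_WT (adjusted p = 0.0234), 0.53 in DNMT_WT (adjusted p = 0.0316) and 0.63 in DNMT_KO (adjusted p = 0.0112). Sparc, a collagen-binding matrix protein, fell by 0.46 in DNMT_WT (adjusted p = 0.0201) and by 0.50 in DNMT_KO (adjusted p = 0.0118), and changed by -0.36 ± 0.11 in TET_WT (adjusted p = 0.128). Lamb1, Col4a1 and Col4a2 were not called in any line between D0 and D2.

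The matrix calls differed in how much they leaned on single libraries. Lamc1 in TET_WT and in DNMT_KO was called whichever of 6 libraries was left out (adjusted p up to 0.0166 and 0.011), and in 4 and 5 of 7 other settings, whereas its DNMT_WT call was kept in 2 of 6 and 3 of 7. Nid1 was called in 1 of 6 such fits in TET_WT, 1 of 6 in DNMT_WT and 3 of 6 in DNMT_KO, with falls between -0.70 and -0.49. Sparc was called in 2 of 6 in DNMT_WT and 3 of 6 in DNMT_KO. Lrp2, the endocytic receptor megalin, rose by 0.39 in TET_WT (adjusted p = 0.0154) and by 0.35 in DNMT_KO (adjusted p = 0.0232), and was called in 2 of 6 and 1 of 6. Between TET_KO and TET_WT, Foxa1, a relative of Foxa2, was higher at D0 (0.56 ± 0.15, adjusted p = 0.0235), a call kept in 3 of 6 fits with a library left out and in 3 of 7 other settings. Col4a2 (-0.46 ± 0.10, adjusted p = 0.00455) and Plat (-0.45 ± 0.13, adjusted p = 0.0293) were lower at D1, and with chromosomes centred neither was (0.05 and 0.06). These were 1 of the 22 at D0 (7.62% of all windows were called) and 2 at D1 (7.92% of all). In limma TET_KO against TET_WT at D2 gave 0 of 22 (7 at an unadjusted p under 0.05; 5.15% of all windows), and DNMT_KO against DNMT_WT gave 0 of 22 on each day (1, 1 and 0 at an unadjusted p under 0.05; 0%, 0.646% and 0% of all windows).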

How the data were processed

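Accessibility was read from a single table with a value for each 2-kb tile in each of 35 ATAC-seq libraries. The authors deposited log2 RPKM, the log2 of reads scaled to tile length and library total, per the file headers. The submitters' processing notes name Trim Galore 0.6.5, cutadapt 2.3, Bowtie2 2.4.1 and the build GRCm38. A Tn5 shift, duplicate removal and masking are not given in the sources used here.

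Values were whole multiples of what 1 read is worth in 100% of tiles (tolerance 0.01 read), with an empty tile set at the value of 0.9 read, so reads were recovered. Folds of tiles near 0 reads therefore depend on that floor and on depth. Genes came from RefSeq (GRCm38.p6), without strand. Tested tiles were the highest 10% by mean on autosomes and X (mean of at least -0.55) and every tile with a gene end, 186254 in all. A window value is the log2 of the summed reads, scaled to the library total (RPM), from 20 kb before to 20 kb after a gene, printed per kb. After quantile normalisation, limma 3.58.1 in R 4.3.3 fitted 1 mean per group with a trended prior (residual degrees of freedom 23, median prior 15.9 for tiles and 2.71 for windows). P-values, 2-sided, were adjusted by Benjamini-Hochberg across all tiles or all windows, a call is an adjusted p under 0.05, and errors are SE of the fit. The 12 comparisons were D2 against D0 in each line, knockout against parent on each day, and the difference of the 2 changes in each family. Scripts were tested on simulated data.

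All 8 members are named. Within a member, values are given for gene-end and start tiles, the tile with the highest mean, and up to 2 called tiles per comparison. Members, lists and rules were chosen with earlier results of these data known. Alternatives covered normalisation, chromosome centring, the samples fitted, a replicate block, the filter, the value of an empty tile, limma voom, flank size, the summary of a window, and each library left out.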

Additional observations from a re-analysis of the deposited data

How the results depend on the processing

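Over the windows of the 8 genes in 12 comparisons and the 3 tile calls, 1309 values under an alternative kept direction and side of the threshold, 42 lost a call, 8 (all windows) gained one and 1 reversed. Other tiles that gained a call enter the counts below. The reversed value was the Gata4 window in TET_KO against TET_WT at D0, 0.0097 with chromosomes centred. Counts of called member tiles (DNMT_WT D2 against D0, 2) were 1 with values as deposited, 0 with only the compared groups, 1 with the highest 5% of tiles, 0 with limma voom, 0 with no filter, 3 with the replicate block, and 0 to 1 with a library left out. For DNMT_KO (1) they were 0 with only the compared groups and 0 with the highest 5% of tiles. Limma voom, for which no share over all tiles was computed, gave 4 in TET_WT and 1 in TET_KO, against 0 and 0. In DNMT_KO against DNMT_WT at D1 no filter gave 3, among them a Sox17 tile with 0 reads in every library. Counts of called windows for D2 against D0 in TET_WT and DNMT_KO (1 each) were 0 with the mean of tile values, and in DNMT_KO 0 with only the compared groups and 1 to 2 with a library left out. In DNMT_WT (1) they were 0 with values as deposited, 0 with only the compared groups, 0 with a flank of 50 kb, 2 with the replicate block, and 0 to 1 with a library left out. In TET_KO against TET_WT the D0 count (2) was 0 with chromosomes centred, 1 with a flank of 10 kb, 1 with the mean of tile values, and 1 to 2 with a library left out. The D1 count (1) was 0 with chromosomes centred. The D2 count (1) was 0 with chromosomes centred, 0 with only the compared groups, 2 with a flank of 50 kb, 0 with the mean of tile values, and 0 to 2 with a library left out. In DNMT_KO against DNMT_WT at D1 (0) it was 0 to 2 with a library left out. Apart from fits with fewer samples or tiles, the cause was not tested.

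The labels do not state whether libraries with the same replicate number belong together, and the correlations below cannot settle it. Same-numbered libraries of 2 groups correlated in their deviations from the group means by -0.26 to 0.38 (median 0.02, 28 pairs), and differently numbered ones by -0.34 to 0.46. Among the counts of members, the replicate block moved the 2 DNMT_WT counts given above and no other; among the called genes of the other lists it ended the call of Esrrb in TET_KO and no other. Depth is a limit for single tiles: called ones held 2 to 26 reads per library at D0 and D2 in the DNMT lines.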
